A study of Mus musculus with 13 samples.

Results

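The genes examined encode KAP1, the enzymes and readers of histone H3 lysine 9 methylation that work with it, and the machinery that keeps DNA methylated. They are Trim28, Setdb1, Cbx1, Cbx3, Cbx5, Suv39h2, Ehmt1, Ehmt2, Uhrf1 and Dnmt1, 10 of the 22367 protein-coding genes annotated outside the mitochondrial genome. They were taken by symbol from the GENCODE M1 annotation of the mouse assembly mm9, and each symbol matched 1 gene. For every gene, regions were sought over the promoter (501 bp centred on the annotated 5′ end, which is 250 bp either way), in the rest of the gene, and within 10 kb of either end.

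KAP1 has no DNA-binding domain for specific sequences of its own. In its best-described role, KRAB zinc finger proteins bring it to transposable elements. There it assembles SETDB1, which trimethylates H3K9, with the HP1 proteins, which bind the methylated tail and compact the chromatin. The study also cites work that places KAP1 at promoters of active genes without KRAB zinc finger proteins, by means still debated. SUV39H2 also trimethylates H3K9, mainly at repeats around centromeres, whereas EHMT1 and EHMT2 work as a dimer that mostly mono- and dimethylates H3K9 in euchromatin. UHRF1 recognises freshly replicated, hemimethylated DNA and recruits DNMT1, which copies the methylation onto the new strand.

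All data came from ChIP-seq of Hepa 1-6, an established murine hepatoma line (written Hepa 1.6 in the labels). KAP1, H3K27ac and H3K4me1 (marks of active regulatory chromatin) and H3K9me3 (a mark of silenced chromatin) were profiled in untreated cells under standard culture. The polymerases that make messenger RNA (PolII) and transfer RNA (PolIII) were profiled 5 days after transduction, in cells that had received either a short hairpin RNA against KAP1 (Kap1 KD) or the control. The labels call the control a control hairpin and the methods of the study call it an empty vector. The labels also describe transfection with a plasmid, where the methods describe transduction and selection with puromycin. Each of the 8 lists comes from 1 library, so no value below has a replicate or an error over replicates, no test between conditions was possible, and a difference between control and Kap1 KD is a difference between 2 libraries. The files hold no read counts, so depth is unknown.

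The control PolII list held 5015 peaks, the Kap1 KD PolII list 12862 and the KAP1 list 12470. Counts of the 10 genes are therefore read beside the share of all 22367 genes that the same list marked. As a check of the label, an H3K27ac region lay over the promoters of the hepatocyte genes Alb, Afp, Hnf4a and Foxa2, of 0 of 3 leukocyte genes and of 0 of 2 neuronal genes. H3K27ac lay over 20% of all promoters. Foxa2 also had PolII there in both conditions, and Alb, Afp and Hnf4a had none. The defining hepatocyte genes Apoa1, Apob, Ttr and Serpina1a had neither H3K27ac nor PolII there.

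Most of the promoters were richer in CpG and GC than the median gene, and Uhrf1 lay near it. A window held between 24 CpG (Uhrf1) and 62 (Suv39h2), with a median of 46.5 over the 10 genes and of 23 over all 22367. GC content ran from 58.7% in Uhrf1 to 73.7% in Ehmt1, with a median of 65.6% against 57.1% over all genes. The observed-to-expected CpG ratio ran from 0.559 in Uhrf1, below the median of 0.588 over all genes, to 1.09 in Cbx1, with a median of 0.857 over the 10. The letters GGGCGG, the core of a GC box, stood on either strand in all 10 windows and in 52.6% of all promoters. The letters TATAAA, the core of a TATA box, stood in none of the 10 and in 16.7% of all promoters, and CCAAT stood in 4 (Setdb1, Cbx5, Uhrf1 and Dnmt1) against 48.1%. The ETS-type letters CCGGAAG were found in Setdb1 alone (14.4% of all promoters). Of the E2F-type octamers, TTTGGCGC was found in Cbx3 alone (0.917% of all promoters) and TTTCCCGC in Uhrf1 alone (2.05%). None of these 6 motifs contains another, both strands were read in each search, and a match of letters is not a bound site.

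The 250 bases just before the 5′ end are shown for 5 of the genes, each in the direction of transcription as read from mm9, with every CpG in capitals. They were chosen as the targeted gene (Trim28), 2 promoters under a KAP1 peak (Cbx5 and Uhrf1), a promoter with PolII under Kap1 KD alone (Setdb1) and a promoter with no region of any list (Suv39h2).
Trim28, chr7:13609251-13609500, plus strand: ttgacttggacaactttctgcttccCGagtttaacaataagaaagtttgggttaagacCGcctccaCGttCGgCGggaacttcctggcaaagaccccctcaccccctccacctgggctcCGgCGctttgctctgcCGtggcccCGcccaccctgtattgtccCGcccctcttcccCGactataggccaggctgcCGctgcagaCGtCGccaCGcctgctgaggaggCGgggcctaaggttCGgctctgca
Cbx5, chr15:103070248-103070497, minus strand: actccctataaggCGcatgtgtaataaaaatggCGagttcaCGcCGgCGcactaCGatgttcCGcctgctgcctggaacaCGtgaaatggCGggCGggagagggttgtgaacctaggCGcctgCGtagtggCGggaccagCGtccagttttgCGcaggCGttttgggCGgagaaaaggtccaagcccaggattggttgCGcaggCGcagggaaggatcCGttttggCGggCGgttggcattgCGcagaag
Uhrf1, chr17:56442494-56442743, plus strand: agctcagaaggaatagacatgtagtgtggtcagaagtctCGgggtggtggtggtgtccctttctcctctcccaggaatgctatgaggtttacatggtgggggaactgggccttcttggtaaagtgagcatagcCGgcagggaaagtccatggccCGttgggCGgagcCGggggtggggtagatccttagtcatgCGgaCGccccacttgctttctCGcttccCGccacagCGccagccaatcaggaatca
Setdb1, chr3:95161125-95161374, minus strand: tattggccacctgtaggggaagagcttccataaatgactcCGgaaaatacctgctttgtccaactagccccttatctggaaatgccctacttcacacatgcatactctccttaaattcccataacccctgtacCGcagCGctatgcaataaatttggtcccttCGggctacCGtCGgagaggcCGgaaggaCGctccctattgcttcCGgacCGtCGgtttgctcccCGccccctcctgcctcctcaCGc
Suv39h2, chr2:3392304-3392553, minus strand: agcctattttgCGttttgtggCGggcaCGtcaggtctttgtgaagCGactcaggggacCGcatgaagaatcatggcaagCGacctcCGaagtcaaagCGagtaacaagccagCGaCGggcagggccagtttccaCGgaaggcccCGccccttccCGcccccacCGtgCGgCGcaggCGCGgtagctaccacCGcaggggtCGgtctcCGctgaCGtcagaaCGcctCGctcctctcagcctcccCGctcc
The stretches hold 17, 23, 10, 13 and 25 CpG in that order. The promoter without any region was thus the most CpG-rich of the 5, and the Uhrf1 promoter, which lay under KAP1, H3K27ac and PolII, was the poorest.

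**Figure D1:**
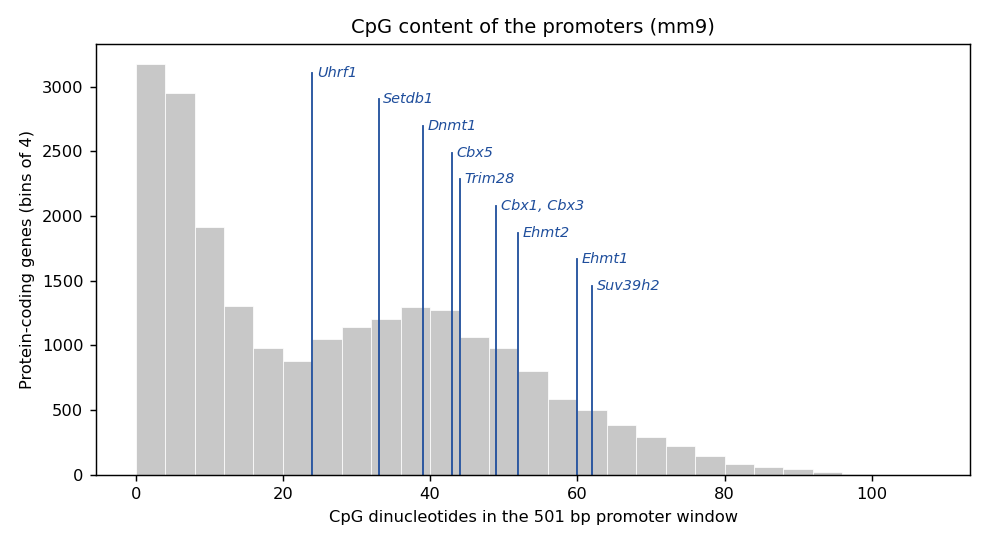
Number of CpG dinucleotides (horizontal axis) in the 501 bp promoter window of all 22367 protein-coding genes (grey bars, number of genes in bins of 4 CpG), with blue lines at the 10 genes, whose heights only separate the names. All 10 lie at 24 CpG or more, above the median of 23 over all genes.

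H3K27ac lay near the start of all 10 genes, and neither H3K9me3 nor H3K4me1 reached any promoter window. H3K27ac overlapped the promoter window of 7 of the 10 genes (Setdb1, Cbx1, Cbx3, Cbx5, Ehmt1, Ehmt2 and Uhrf1), against 20% of all genes. That count rests on narrow overlaps at the edge of the window: it was 2 of 10 with 100 bp to each side (9.23% of all genes), 2 of 10 with only regions wider than the median (11.4%) and 0 of 10 when 0.5 of the window had to be covered (4.46%). H3K27ac lay within 1 kb of the 5′ end in 10 of 10, against 35.2% of all genes. Cbx3 was the only one of the 10 whose 5′-most base was itself inside an H3K27ac region, 1 of 10, where it was 11.3% of all genes with H3K27ac within 1 kb. In 5 of the 10 (Cbx1, Cbx5, Suv39h2, Ehmt1 and Uhrf1) such regions stood on both sides of the start within 1 kb without covering it. Over all genes with H3K27ac within 1 kb, 46.5% had that two-sided arrangement, close to the 50% of these 10 genes. H3K4me1 was found over the promoter of 0 of 10 genes (11.9% of all genes) and within 1 kb in 5 of 10 (Trim28, Cbx1, Cbx5, Suv39h2 and Ehmt1), near the background of 37.1%. H3K9me3 was found over 0 of 10 promoters, against 5.24% of all genes.

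**Figure D2:**
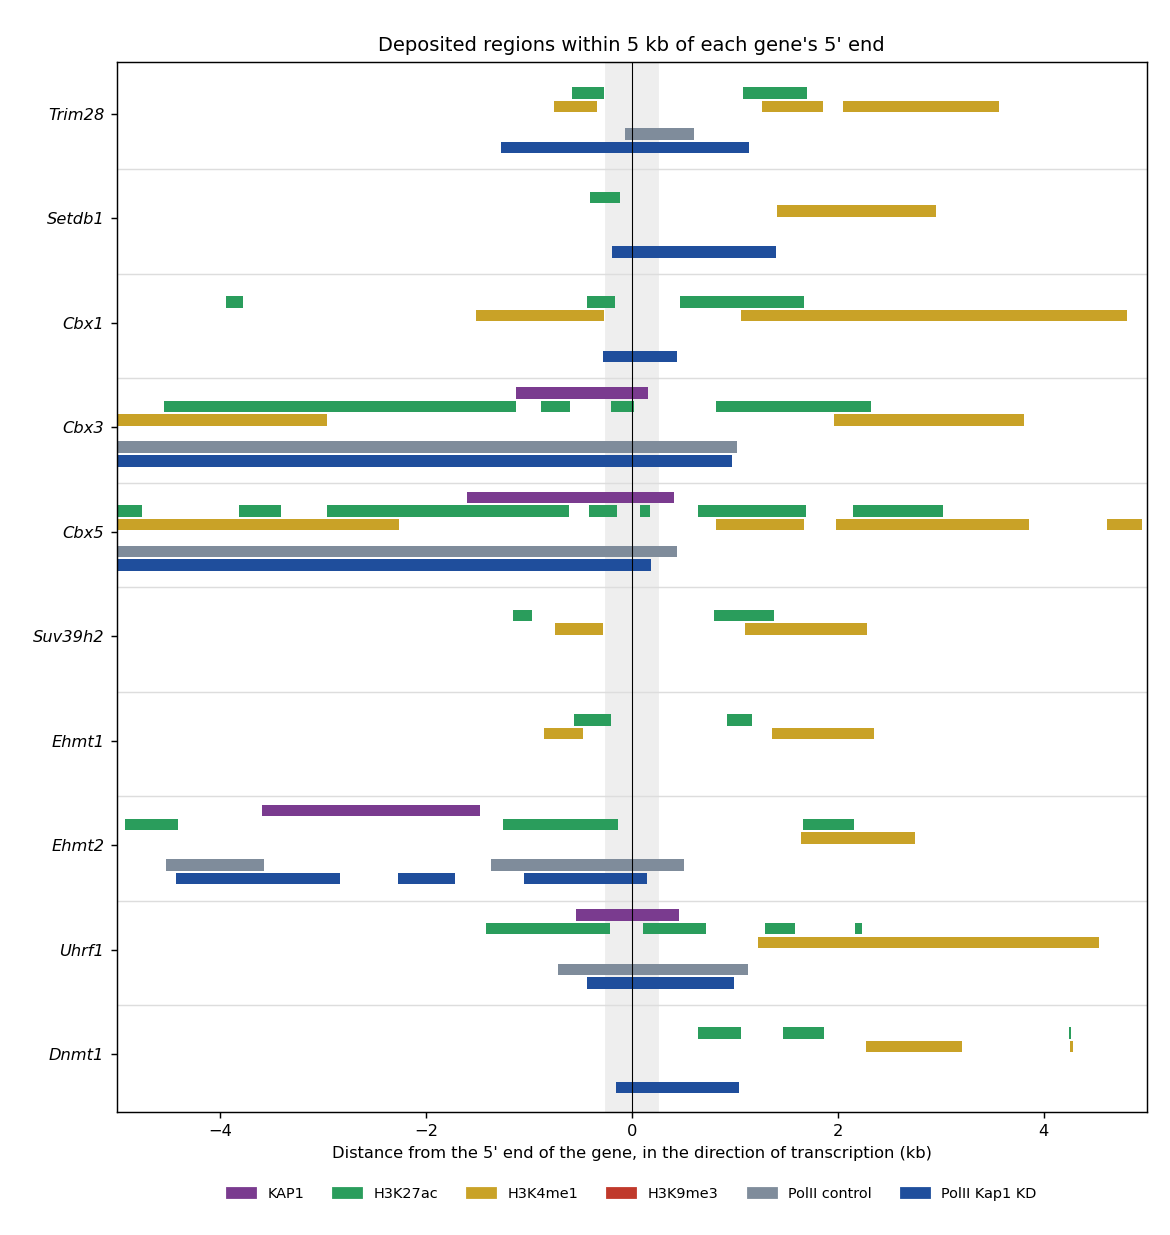
Deposited regions of 6 lists within 5 kb of the annotated 5′ end of each gene, drawn to scale in the direction of transcription (horizontal axis in kb, 0 is the 5′ end, the grey band is the 501 bp promoter window). Each bar is 1 region of 1 library, cut at 5 kb. H3K27ac, except at Cbx3, and H3K4me1 stand to the sides of the start, PolII of at least 1 condition reaches over it in 8 of 10 genes, and no H3K9me3 falls in this range.

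KAP1 itself was called over 3 of the 10 promoters, those of Cbx3, Cbx5 and Uhrf1, against 15.7% of all genes. PolII was called over 5 promoters in the control (Trim28, Cbx3, Cbx5, Ehmt2 and Uhrf1), against 13.1% of all genes. Under Kap1 KD it was called over 8, the same 5 with Setdb1, Cbx1 and Dnmt1, against 23.3%. KAP1 together with PolII of both conditions was found at 3 promoters, those of Cbx3, Cbx5 and Uhrf1, against 6.69% of all genes. These carried H3K27ac too, a combination found, without a region of any other list, at 719 genes (3.22% of all). Setdb1 and Cbx1 shared H3K27ac with PolII of the Kap1 KD list alone, as 464 genes did. Trim28 had PolII of both conditions and nothing else, as 495 genes did. Ehmt2 added H3K27ac to that (472 genes), Ehmt1 had H3K27ac alone (733 genes) and Dnmt1 had PolII of the Kap1 KD list alone (780 genes). Suv39h2 had no region of any list over its promoter, as 13076 genes did, which is 58.5% of all.

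**Figure D3:**
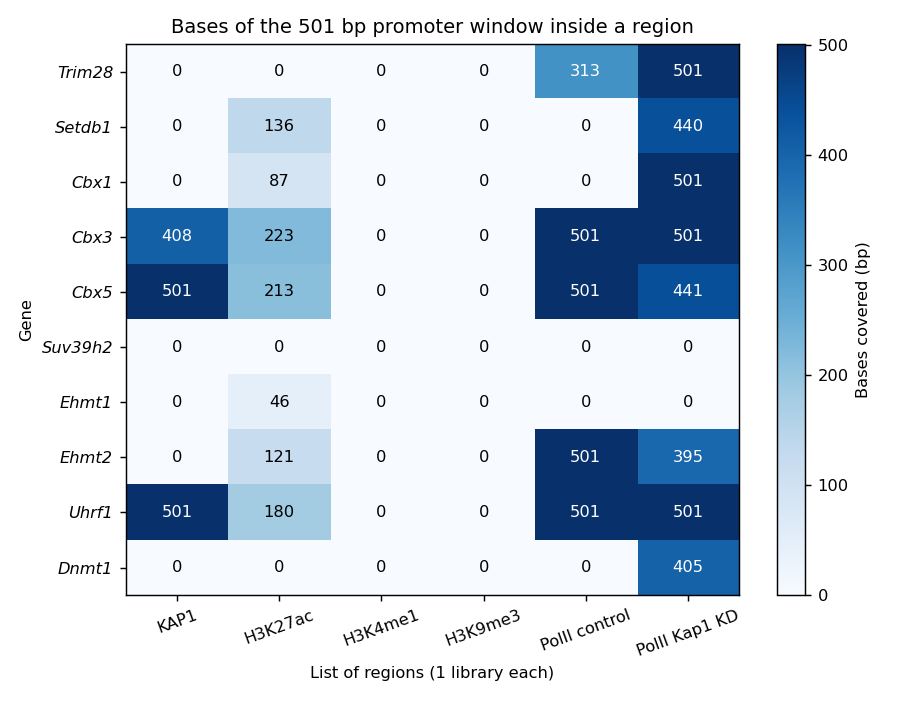
Bases of the 501 bp promoter window inside a region, for the 10 genes (rows) and 6 lists (columns), with the number printed in each cell and darker blue for more bases. KAP1 covers 408 to 501 bases at Cbx3, Cbx5 and Uhrf1, H3K27ac covers 46 to 223 bases where present, and PolII covers 313 bases or more wherever it was called.

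Trim28, the gene for KAP1 and the target of the hairpin, is a compact gene of 6884 bp on chromosome 7 (13609501 to 13616384, plus strand). A PolII peak lay over its promoter in both conditions. In the control it was 668 bp wide and ran from 62 bp before the 5′ end to 605 bp inside, with a score of 33, at or above 39.6% of the control peaks. Under Kap1 KD it was 2409 bp wide, from 1266 bp before to 1142 bp inside, with a score of 142, at or above 86.8% of that list. The peak therefore covered 313 bases of the promoter window in control cells and 501 in Kap1 KD cells. A hairpin acts on the transcript, so polymerase at the gene is no measure of the knockdown, and the level of KAP1 is not given by these files.

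KAP1 did not occupy the promoter of its own gene at the threshold of the deposited list. Its nearest peak (13619620 to 13620612, score 107, at or above 52.7% of KAP1 peaks) began 10.1 kb from the 5′ end and 3236 bp beyond the 3′ end, over the promoter of Chmp2a, a gene of the membrane-remodelling ESCRT-III complex. H3K27ac and H3K4me1 flanked the Trim28 start. The nearest H3K27ac edges were 273 bp upstream and 1084 bp downstream, and the nearest H3K4me1 edges were 341 bp upstream and 1268 bp downstream. H3K4me1 covered 2102 bases of the gene, 30.5% of it, and H3K27ac covered 619 bases. The 3′ end differed between the 2 PolII lists. In the control a peak of 1942 bp (13616288 to 13618229, score 73) crossed the end of Trim28, and another of 931 bp lay over the Chmp2a promoter. Under Kap1 KD a single peak of 3610 bp (13616858 to 13620467, score 240) began 474 bp beyond the end of Trim28 and ran over Chmp2a, which is transcribed towards Trim28, so polymerase of the 2 genes cannot be told apart there.

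Setdb1, the methyltransferase that KAP1 recruits, lies on the minus strand of chromosome 3 (95127447 to 95161124). No control PolII peak lay over its promoter. Under Kap1 KD a peak of 1586 bp (95159728 to 95161313, score 78, at or above 71.4% of that list) reached from 189 bp before the 5′ end to 1396 bp inside and covered 440 bases of the window. An H3K27ac region of 293 bp stood 115 bp upstream and an H3K4me1 region of 1550 bp began 1407 bp downstream. No KAP1 peak lay in the gene or within 10 kb, the nearest being 18.8 kb from the 5′ end.

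Setdb1 was the only one of the 10 genes with H3K9me3 inside it. That region was 332 bp wide (95152710 to 95153041), intronic, 8083 bp into the gene, and close in width to the median of 324 bp over that list. A second of 146 bp lay 8078 bp upstream. At its other end Setdb1 converges on Lass2, a ceramide synthase gene whose annotated 3′ end overlaps that of Setdb1. Both PolII lists had a peak across this junction, of 3129 bp in control cells and 5619 bp in Kap1 KD cells, covering 792 and 1875 bases of Setdb1. Reads from the 2 converging genes cannot be told apart there.

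The 3 HP1 genes differed in what lay at their starts. Cbx1 (HP1β) had neither KAP1 nor control PolII there. Cbx3 (HP1γ) and Cbx5 (HP1α) had KAP1 and PolII of both conditions, and each shares an upstream region with a divergent gene for an abundant RNA-binding protein. A divergent protein-coding 5′ end within 1 kb was found at 3 of the 10 genes (Cbx3, Cbx5 and Ehmt2), against 7.15% of all genes. Over the 1599 genes with such a neighbour, 35.5% had KAP1 over the promoter, and over the 20768 others 14.2% had it. PolII lay over 25.8% and 12.2% of these promoters in the control and over 49.5% and 21.3% under Kap1 KD.

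Cbx1, on chromosome 11 (96650441 to 96669954, plus strand), had no control PolII anywhere in the gene. Under Kap1 KD a peak of 728 bp (96650157 to 96650884, score 47, at or above 49.2% of that list) covered all 501 bases of the window, and a weaker one of 406 bp (score 25) lay in an intron 10.7 kb into the gene. Beyond the 3′ end both lists held a wide peak over sequence with no annotated gene, short of Nfe2l1, the gene of a stress-response transcription factor that converges on Cbx1. It was 6631 bp in the control, starting 1287 bp past the end (score 188), and 4790 bp under Kap1 KD, starting 813 bp past it (score 284). Polymerase was thus called behind the gene in the control without being called at its start. Whether it belongs to Cbx1 or to the converging Nfe2l1 cannot be told here. H3K27ac edges stood 164 bp upstream and 470 bp downstream of the start, and H3K4me1 covered 6335 bases of the gene, 32.5% of it.

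Cbx3, on chromosome 6 (51420359 to 51433703, plus strand), starts 466 bp from the 5′ end of Hnrnpa2b1, which encodes an RNA-binding protein of messenger RNA processing and runs the other way. A KAP1 peak of 1287 bp (51419230 to 51420516, score 176, at or above 72.9% of KAP1 peaks) overlapped both promoters, with its centre 486 bp upstream of Cbx3. The control PolII peak was 16587 bp wide (51404799 to 51421385) and covered Hnrnpa2b1 from end to end, with a score of 826, at or above 99.1% of the list. Under Kap1 KD the same stretch held a peak of 6162 bp over both promoters (score 514, at or above 97.8%) and a separate peak of 8862 bp upstream (score 816). The peak over the promoter was therefore the narrower one under Kap1 KD, with Hnrnpa2b1 covered by these 2 peaks except for the gap between them. Inside Cbx3 the control peak reached 1026 bp and the Kap1 KD peak 974 bp. A peak of 1321 bp with its centre in the 3′ UTR exon (51432066 to 51433386, score 75) was called under Kap1 KD alone. Past the 3′ end lay 2 H3K9me3 regions, of 116 bp and 615 bp, which began 3738 bp and 4309 bp beyond the gene.

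Cbx5, on the minus strand of chromosome 15 (103021975 to 103070247), starts 698 bp from the divergent Hnrnpa1, another gene of messenger RNA processing. Its KAP1 peak was 2010 bp wide (103069840 to 103071849, score 213, at or above 78.1%), the highest-scoring of the 3 at these promoters, and covered the whole window of Cbx5 and the Hnrnpa1 promoter. PolII formed a single wide peak over both starts in each condition, of 10435 bp in the control (score 499, at or above 98.0%) and 11542 bp under Kap1 KD (score 1028, at or above 99.3%). Most of that width lay on the Hnrnpa1 side. Only 436 bp of the control peak and 190 bp of the Kap1 KD peak were inside Cbx5. A second, weak KAP1 peak (score 56.8, at or above 10.3%) lay 8767 bp beyond the 3′ end.

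Cbx5 was also marked far inside the gene. Of its 4 annotated transcripts, 3 start between 24450 and 24511 bp downstream of the 5′ end, in what is an intron of the longest. There a PolII peak of 599 bp was called in the control (103045337 to 103045935, score 29, at or above 31.1%) and one of 1900 bp under Kap1 KD (103045191 to 103047090, score 113, at or above 82.3%). An H3K27ac region of 5457 bp (103042965 to 103048421) spanned these internal starts and was wider than or as wide as 99.0% of that list. Cbx5 had 17 H3K27ac and 16 H3K4me1 regions in the gene or within 10 kb, where the other 9 genes had 2 to 5 and 1 to 7. H3K27ac covered 25.8% of the gene and H3K4me1 covered 44.8%. Beyond the 3′ end, a PolII peak of 4472 bp (score 196), starting 135 bp past it, was called under Kap1 KD alone.

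Of the remaining H3K9 methyltransferase genes, Suv39h2 and Ehmt1 had no PolII peak of either condition and no KAP1 in the gene or within 10 kb. Suv39h2, on the minus strand of chromosome 2 (3373087 to 3392303), had an H3K4me1 region of 465 bp whose edge was 283 bp upstream of the start and an H3K27ac region of 588 bp from 795 bp downstream, in the intron. One of its 4 annotated transcripts starts 612 bp inside the gene, and the H3K27ac region lay within 250 bp of that start. The nearest KAP1 peak was 142 kb away and the nearest H3K9me3 region 11.1 kb away.

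Ehmt1 (GLP), on the minus strand of chromosome 2 (24646289 to 24775129), is with 128841 bp the longest of the 10. H3K27ac covered 243 of its bases (0.189% of the gene) and H3K4me1 covered 1180 (0.916%). An H3K27ac region of 362 bp reached within 205 bp of the start and covered 46 bases of the window. KAP1 was 261 kb from its 5′ end and H3K9me3 was 335 kb from it, the greatest of these distances among the 10 genes.

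Ehmt2 (G9a), on chromosome 17 (35035414 to 35050997, plus strand), starts 17 bp from the annotated 5′ end of C2, a complement gene on the other strand, so every region over one start lies over the other. The PolII peak there was 1869 bp in the control (35034050 to 35035918, score 80, at or above 80.5%) and 1195 bp under Kap1 KD (35034364 to 35035558, score 102, at or above 79.8%). It covered 505 bases of Ehmt2 in control cells and 145 in Kap1 KD cells, and 2 coding transcripts that start 485 and 502 bp inside the gene had the control peak within 250 bp and not the other. An H3K27ac region of 1122 bp ended 130 bp before the start. KAP1 was absent from the promoter, but a peak with a score of 683, at or above 93.7% of KAP1 peaks, lay 1477 bp upstream (35031820 to 35033937) inside C2 and over the end of Zbtb12, a zinc finger gene. It was the highest-scoring KAP1 peak within 10 kb of any of the 10 genes.

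Uhrf1, on chromosome 17 (56442744 to 56462909, plus strand), had the one KAP1 peak of the 3 that no second protein-coding promoter shared. It was 999 bp wide (56442200 to 56443198), centred 45 bp before the start and covered the whole window, with a score of 83.1, at or above 38.4% of KAP1 peaks, below the median of that list. PolII covered the whole window in both conditions, in a peak of 1844 bp in the control (score 71, at or above 77.0%) and of 1422 bp under Kap1 KD (score 107, at or above 81.1%). H3K27ac regions of 1210 bp and 608 bp left a gap over the start, from 209 bp upstream to 113 bp downstream, and H3K4me1 of 3311 bp followed from 1227 bp.

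Dnmt1, on the minus strand of chromosome 9 (20711650 to 20757317), was bare at its start apart from PolII under Kap1 KD. That peak was 1195 bp wide (20756277 to 20757471, score 57, at or above 58.7%) and ran from 154 bp before the 5′ end to 1040 bp inside. No control PolII peak lay in the gene. H3K27ac began 646 bp downstream and H3K4me1 2271 bp downstream, both intronic, and on the upstream side the nearest were 22128 bp and 22040 bp away. KAP1 was 74.0 kb away.

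Within genes, H3K4me1 was called in 10 of the 10 gene bodies (50.5% of all genes) and H3K27ac in 9, all but Setdb1 (41%). KAP1 was called in 2 (Cbx5 and Uhrf1, in each case the promoter peak reaching inwards), against 23.7% of all genes, and H3K9me3 in 1 (Setdb1), against 23.2%. PolII was called in 6 gene bodies in the control (Trim28, Setdb1, Cbx3, Cbx5, Ehmt2 and Uhrf1), against 14.9%, and in 7 under Kap1 KD (Trim28, Setdb1, Cbx1, Cbx3, Cbx5, Uhrf1 and Dnmt1), against 27.2%. With 10 kb added at each end, H3K27ac was found at 10 of 10 (56.8%) and H3K4me1 at 10 of 10 (63.9%). KAP1 was found at 5 (Trim28, Cbx3, Cbx5, Ehmt2 and Uhrf1), against 34.9%, and H3K9me3 at 2 (Setdb1 and Cbx3), against 36.8%. PolII was found at 8 in the control (23.3%) and at the same 8 under Kap1 KD (39%), all but Suv39h2 and Ehmt1. In the 5 kb beyond the 3′ end, PolII was called at 4 genes in the control (Trim28, Setdb1, Cbx1 and Uhrf1), against 7.48%, and at these and Cbx5 under Kap1 KD, against 13.6%. At Uhrf1 that peak lay at the start of the next gene, Kdm4b. At Trim28 and Setdb1 the peaks ran into the converging Chmp2a and Lass2, and at Cbx1 they lay short of the converging Nfe2l1. The only control peak within 10 kb of Dnmt1 lay over the promoter of a neighbouring gene. These counts can therefore include polymerase of neighbours, as can the shares of all genes.

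PolIII was not called at any of these genes. The control list marked 0 of 10 promoters (0.344% of all genes) and 0 of 10 genes with their 10 kb flanks (5.88%). The Kap1 KD list marked 0 of 10 promoters (0.134%) and 0 of 10 with flanks (1.39%). The nearest control PolIII peak was 114 kb from a 5′ end (Setdb1), and the nearest Kap1 KD peak was 913 kb from one (Cbx1).

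The question that the 2 PolII lists address is whether polymerase at these genes differed in cells with the hairpin against KAP1. At 5 promoters (Trim28, Cbx3, Cbx5, Ehmt2 and Uhrf1) PolII was called in both lists, against 12.4% of all genes. At 3 (Setdb1, Cbx1 and Dnmt1) it was called under Kap1 KD alone, against 10.9%, and at 0 in the control alone, against 0.733%. The Kap1 KD list was 12862 peaks long and the control list 5015, and scores rank peaks only within a list, so percentiles in the full lists are not comparable between them. Among the 2777 promoters with PolII in both full lists the percentile was higher under Kap1 KD by a median of 15.1 points. With the Kap1 KD list cut to its 5015 highest-scoring peaks, an alternative chosen after the data were seen, the median difference was -4.53 points over the 2063 promoters left with both, with 5% of them below -41.3 and 5% above 26.7.

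Read by rank, where 1 is the highest score, the Trim28 peak stood at 3028 in the control and 1696 under Kap1 KD. With lists of equal length its percentile was 39.6 and 66.2, a difference of 26.6 points that 94.9% of the 2063 promoters did not exceed. Its peak was 3.61 times as wide, where the median of the 2777 promoters was 1.34 times. The ratio lay below that median at Cbx5 (1.11), Uhrf1 (0.771), Ehmt2 (0.639) and Cbx3 (0.371). Ehmt2 ranked 977 and 2595 and Uhrf1 1153 and 2437. At equal length they differed by -32.3 and -25.6 points, while in the full lists the differences were -0.706 and 4.03, so the sign at Uhrf1 turns with the length of the list. Cbx5 ranked 101 and 94 and Cbx3 ranked 45 and 286, in peaks that lay mostly outside these genes, towards Hnrnpa1 and Hnrnpa2b1. The Cbx3 stretch was a single control peak, while under Kap1 KD the ranked promoter peak stood beside a separate peak at rank 140. Cbx5 and Cbx3 scored so near the top of the control list (98.0 and 99.1%) that a percentile could hardly be higher. At equal length they differed by 0.140 and -4.81 points. Of the 3 promoters with PolII under Kap1 KD alone, Setdb1 ranked 3685 there, Dnmt1 5319 and Cbx1 6541, so that Dnmt1 and Cbx1 fall outside the 5015 highest-scoring peaks.

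**Figure D4:**
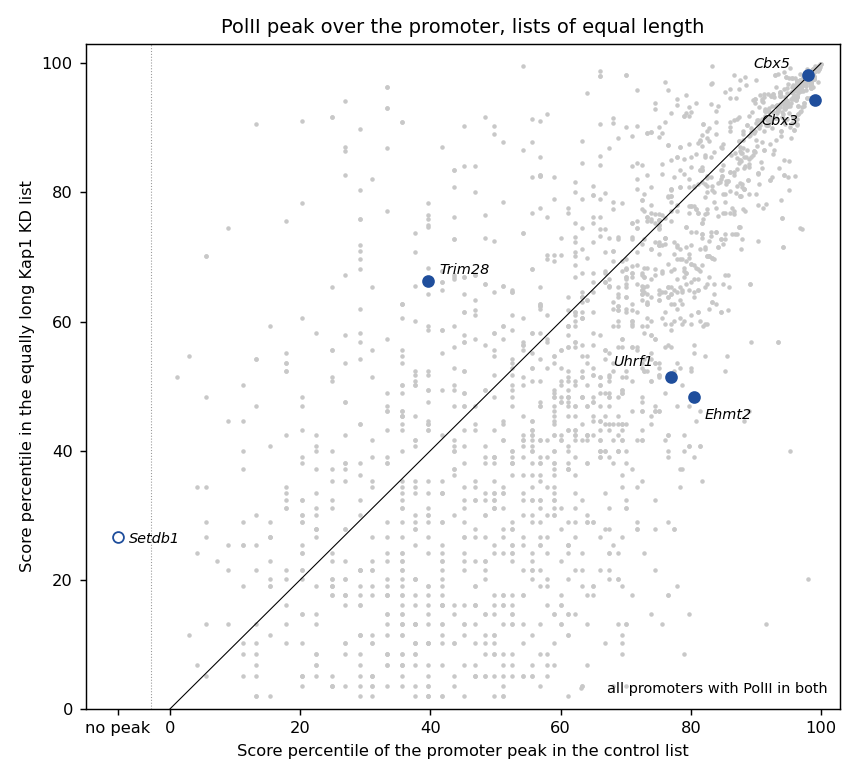
Score percentile of the PolII peak over a promoter in the control list (horizontal axis) and in the Kap1 KD list cut to its 5015 highest-scoring peaks (vertical axis), in percent of peaks in the list at or below that score, with grey points for the 2063 promoters with a peak in both and blue points for the named genes. The open circle is Setdb1, which has no control peak, and the line marks equal percentiles. Trim28 is at 39.6 and 66.2, above the line, and Ehmt2 and Uhrf1 lie below it by 32.3 and 25.6 points. Cbx3 and Cbx5 are near the top of both lists, in peaks that lie mostly outside these genes.

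The PolII peaks carry running numbers that skip, with 31.35% of the numbers missing in the control list and 22.55% in the Kap1 KD list. The reason is not stated, and calls may have been removed before deposit. Around the Cbx1 promoter no number was missing between the control peaks on either side, which are 609 kb apart, and the same held for Dnmt1 over 174 kb. Around the Setdb1 promoter 1 number was missing within 334 kb. Around Ehmt1 4 control numbers were missing within 6387 kb and 0 Kap1 KD numbers within 1053 kb. Before the first peak of chromosome 2, which follows Suv39h2, 0 numbers were missing in the control and 1 under Kap1 KD. With the Kap1 KD list cut to the length of the control list, PolII remained over the promoters of 6 of the 8 genes, 6 of 10 against 12.3% of all genes, and Setdb1 was the only one with it under Kap1 KD alone, 1 of 10 against 3.08%.

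In bases of the gene covered by PolII peaks, 6 of the 8 genes with any PolII had more under Kap1 KD, as did 84.3% of the 6884 protein-coding genes with any. At Setdb1 the control list covered 792 bases and the Kap1 KD list 3511. All of the 792 and 1875 of the 3511 lay in the peaks across the Lass2 junction, where the genes cannot be told apart. Cbx3 had 1027 control bases and 2296 with the hairpin against KAP1, Cbx5 had 1036 and 2091, and Trim28 had 703 and 1143. Cbx1 had 0 and 850, and Dnmt1 had 0 and 1041. In the other direction, Ehmt2 had 505 control bases and 145 Kap1 KD bases, and Uhrf1 had 1130 and 990. With the Kap1 KD list cut to the length of the control list, Cbx1 and Dnmt1 had 0 bases in both lists, Setdb1 had 3272 and the other values stayed as they were.

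The wider pathway was read from 48 further symbols, of which 46 matched a gene. These belong to the NuRD remodelling and deacetylase complex, H3K9 and H4K20 methylation, lysine demethylation, DNA methylation and the HUSH complex. Others belong to histone chaperones and remodellers, SUMO conjugation and KRAB zinc finger proteins. Not every gene of a methylation or demethylation group encodes the enzyme itself. KAP1 lay over 11 of the 46 promoters (23.9%, against 15.7% of all genes). H3K27ac lay over 10 (21.7%, against 20%), H3K4me1 over 7 (15.2%, against 11.9%) and H3K9me3 over 1 (2.17%, against 5.24%), near their backgrounds. PolII lay over 13 in control cells (28.3%, against 13.1% of all genes) and 25 in Kap1 KD cells (54.3%, against 23.3%). It lay over 13 in both (28.3%, against 12.4%), over 12 under Kap1 KD alone (26.1%, against 10.9%) and over 0 in the control alone (against 0.733%). With lists of equal length, 14 had it under Kap1 KD (30.4%, against 12.3% of all genes) with 3 under Kap1 KD alone (6.52%, against 3.08%) and 2 in the control alone (4.35%, against 3.93%). PolIII lay over 0 in either condition.

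KAP1 with PolII of both conditions was found at 9 of the 46 (19.6%, against 6.69% of all genes). In alphabetical order the first 5 of them were D14Abb1e and Morc2a of the HUSH pathway, Mbd2 and Mbd3, alternative methyl-CpG-binding-domain subunits of NuRD, and Mta2, another NuRD subunit. H3K9me3 over the promoter was found at Smarca5, a chromatin-remodelling ATPase, where KAP1 and PolII of both conditions were also called. The 12 with PolII under Kap1 KD alone included the histone chaperone genes Asf1a and Chaf1a and the NuRD genes Chd3, Chd4 and Hdac1. NuRD, the group with the most genes, had PolII at 10 of its 13 under Kap1 KD (23.3% of all genes) and at 3 in the control (13.1% of all genes), with 7 under Kap1 KD alone (10.9% of all genes). With lists of equal length it had PolII at 4 under Kap1 KD (12.3% of all genes), with 2 under Kap1 KD alone (3.08%) and 1 in the control alone (3.93%). The other groups are small and were not recounted with lists of equal length. Against 23.3% of all genes, PolII under Kap1 KD lay over 5 of 8 chaperone and remodeller genes and 3 of 5 lysine demethylation genes. It lay over 2 of 4 HUSH genes, 2 of 3 SUMO genes and 1 of 2 H4K20 methylation genes. Of the rest it lay over 1 of 4 H3K9 methylation, 1 of 5 DNA methylation and 0 of 2 KRAB zinc finger genes. Against 10.9% of all genes, it lay there under Kap1 KD alone at 2 chaperone and remodeller genes. The same held at 1 gene each of lysine demethylation, H3K9 methylation and DNA methylation. It held at 0 in HUSH, SUMO, H4K20 methylation and the KRAB zinc finger genes. Neither of the KRAB zinc finger genes Zfp57 and Zfp809 had a region of any list over the promoter.

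**Figure D5:**
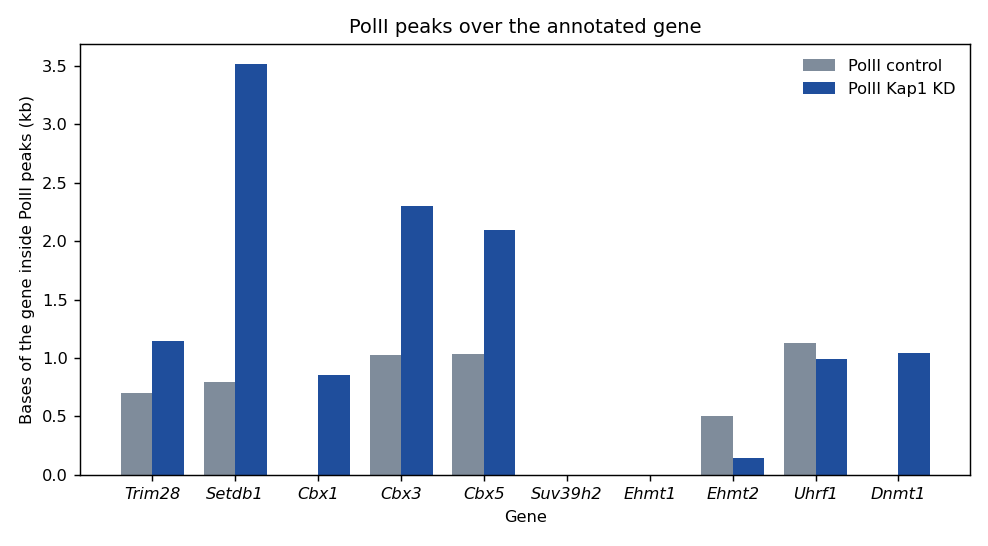
Bases of each annotated gene inside PolII peaks, in kb (vertical axis), for the 10 genes, with grey bars for the control and blue bars for Kap1 KD (1 library each, no error bars). Setdb1 has the tallest bar with 3511 bases under Kap1 KD, part of them at the junction with Lass2. Ehmt2 and Uhrf1 have less under Kap1 KD, and Suv39h2 and Ehmt1 have none.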

How the data were processed

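ChIP-seq lists of KAP1, H3K27ac, H3K4me1, H3K9me3, PolII and PolIII were used as deposited. Per the methods, the authors mapped reads with Bowtie to mm9, used MACS with total input as the control for KAP1 and PolII, and used ChIP-Part for the histone marks. The caller for PolIII is not given in the sources used here. The deposited KAP1, PolII and PolIII lists carry a score from the authors, whose meaning was not stated for the polymerases and which was used only to rank peaks within a list. The other lists hold positions alone. The 5 inputs have no list and were not analysed here. A marker gene of the hepatocyte list is not reported here.

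Positions are counted from 1. Every region lies within the chromosomes of NCBIM37, which is mm9, and that assembly with GENCODE M1 was used. A region counted where it shared at least 1 bp with a window. The gene body is the gene without its promoter window. Where several peaks overlapped a promoter, the highest-scoring one was used. A percentile is the share of peaks in the list with a score (or width) no higher. Overlaps were computed in Python 3.11.15 with numpy 2.4.6, and the code was tested on simulated intervals. Without replicates or counts, no test was run. The 10 genes, the pathway list and the alternatives were chosen with earlier results of these data known. All 10 genes are named, and of the pathway genes up to 5 of each class in alphabetical order, with neighbours whose 5′ end lies within 1 kb. Chmp2a, Lass2, Nfe2l1, Zbtb12 and Kdm4b were named after their values were seen. Alternatives were other promoter widths and flanks, any transcript start, a larger overlap, stronger or wider regions, and PolII lists of equal length.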

Additional observations from a re-analysis of the deposited data

How the results depend on the processing

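Of 64 alternatives, 57 left the count of genes within 1.5 times its value and 7 did not. Some of the 57 could not have moved: a count of 0 stays 0 under a narrower or stricter rule, and a full count stays full under a wider one. Every count for KAP1, PolIII and H3K9me3 over the promoter, and for PolII over the promoter in the control, under Kap1 KD or in both, was among the 57. For H3K27ac the promoter count of 7 fell to 2 with 100 bp to each side, to 2 with only regions wider than the median and to 0 when 0.5 of the window had to be covered (9.23%, 11.4% and 4.46% of all genes). For H3K4me1 the count of 0 became 5 with 1000 bp to each side (37.1% of all genes) and 3 when any annotated transcript start was taken (18.3%). The genes with H3K9me3 nearby went from 2 to 4 (Trim28 and Suv39h2 added) with 20 kb beyond each end (47.6% of all genes). The genes with PolII under Kap1 KD alone went from 3 to 1 with the Kap1 KD list cut to the length of the control list, an alternative added after seeing the data. The score percentile differences between the PolII lists also moved with that cut: 26.6 in place of 47.2 points at Trim28, -4.81 in place of -1.34 at Cbx3, 0.140 in place of 1.27 at Cbx5, -32.3 in place of -0.706 at Ehmt2 and, reversed, -25.6 in place of 4.03 at Uhrf1. Fewer regions or a narrower window give fewer overlaps by construction, and no other cause was tested.

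No paired analysis was possible because each group holds 1 library. The unknown depth of each library, the skipped peak numbers and the single libraries limit every statement on a missing peak: a promoter without a peak is one where none was deposited. Control and Kap1 KD lists can differ in depth and threshold as well as in KAP1, and these cannot be told apart here. KAP1 and the histone marks were profiled in cells that had not been transduced.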
